A study of Homo sapiens with 6 samples.

Results

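The metallothioneins examined here were the 7 genes MT2A, MT1X, MT1E, MT1F, MT1G, MT1M and MT1A of the family cluster on chromosome 16, chosen by gene name from the 57914 genes of the deposited tables. Stranded mRNA libraries had been sequenced from the human melanoma line A375, grown in high-glucose DMEM with fetal calf serum and with no allele or drug named in the labels. The cells were stained with Aldefluor, a substrate that aldehyde dehydrogenases (ALDH) turn into a fluorescent product retained by the cell. Sorting gave the 5% of cells with the highest signal (ALDH_High, 3 libraries) and the 5% with the lowest (ALDH_Low, 3 libraries). Each group comes from this single line, and the labels do not say whether the libraries of a group came from separate cultures or sorts, so p-values measure the spread between these libraries, which may be technical. Where 3 values are given for a group, they are in the order of libraries 1, 2 and 3.

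Metallothioneins are small cysteine-rich proteins that bind zinc and copper through their sulfur atoms, and that also bind cadmium. Zinc that enters the cell binds the transcription factor MTF1, which then acts on short metal response elements in the promoters of these genes. Glucocorticoids and oxidants can also raise their transcripts, and MT2A is the member expressed in most human tissues.

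MT2A and MT1X were the 2 members with more than a trace of RNA, and their coding sequences are shown because the near identity of the family bears on how reads are assigned. Both are 186 bases long in GENCODE 44 (GRCh38), counting the stop codon, and 14 bases differ between them, which are in capitals.
MT2A: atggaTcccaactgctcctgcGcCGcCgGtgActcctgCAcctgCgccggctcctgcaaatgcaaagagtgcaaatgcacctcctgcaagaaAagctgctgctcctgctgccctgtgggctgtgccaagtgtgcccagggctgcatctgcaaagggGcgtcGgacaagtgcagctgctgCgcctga
MT1X: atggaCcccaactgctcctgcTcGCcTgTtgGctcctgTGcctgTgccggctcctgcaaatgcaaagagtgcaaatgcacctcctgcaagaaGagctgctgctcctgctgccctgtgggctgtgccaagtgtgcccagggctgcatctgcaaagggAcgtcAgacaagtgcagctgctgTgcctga
In each of the 7 members, 20 of the 62 codons were TGT or TGC, the codons of cysteine. Coding identity between members, compared without gaps in the transcript whose coding length was nearest to that of MT2A, ran from 88.7% (MT1X and MT1F) to 95.2% (MT2A and MT1G). The longest run of bases that MT2A and MT1X share is 63. Of all 50-base windows in the MT2A transcript, 11.1% also occurred in a transcript of another gene, and at 75 bases 0% did. For MT1X the shares were 51.0% at 50 bases, 36.1% at 75 and 22.0% at 100, where the shared windows belong to a long noncoding RNA (ENSG00000259827) that overlaps MT1X on the same strand and was listed at 0 counts throughout. The read length is not given in the sources used here. The counts of MT1X are therefore uncertain where reads could be split or dropped, and those of MT2A less so. For the other 5 members, between 79.8% and 94.7% of the 50-base windows were their own.

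The promoters of MT2A and MT1X follow, since these are the members with RNA in the files; RefSeq promoters matched 2 of the 7 members, and MT1E, MT1F, MT1G, MT1M and MT1A had no entry. The 250 bases before the RefSeq transcript start are given 5′ to 3′ on the gene's strand (GRCh38.p14), with every match to a metal response element in capitals, searched as TGCACNC and TGCGCNC on both strands.
MT2A, plus strand, chr16:56608334-56608583: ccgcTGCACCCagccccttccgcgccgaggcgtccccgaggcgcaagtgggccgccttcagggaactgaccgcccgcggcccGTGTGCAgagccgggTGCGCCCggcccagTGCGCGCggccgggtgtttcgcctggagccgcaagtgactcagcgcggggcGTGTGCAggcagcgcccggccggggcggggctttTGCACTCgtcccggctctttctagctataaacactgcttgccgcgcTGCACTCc
MT1X, plus strand, chr16:56682220-56682469: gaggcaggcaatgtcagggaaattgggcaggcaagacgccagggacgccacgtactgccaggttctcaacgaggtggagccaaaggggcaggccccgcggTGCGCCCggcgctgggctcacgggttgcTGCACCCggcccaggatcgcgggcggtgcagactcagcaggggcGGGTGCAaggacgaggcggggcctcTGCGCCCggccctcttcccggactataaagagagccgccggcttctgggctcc
MT2A held 7 matches and MT1X held 4. At least 1 match was present in 24.8% of the 35116 RefSeq promoter windows of the same length, at least 4 in 0.370% and at least 7 in 0.0313%. These windows were not matched for base composition, and G and C made up 73.2% of the MT2A window and 70.0% of the MT1X window. In MT2A, 5 of the 7 matches lay on the gene's strand and 2 on the other strand, the nearest to the start at -8 to -2. In MT1X, 3 lay on the gene's strand and 1, at -78 to -72, on the other strand, where it overlaps a GC box (GGGCGG). Each promoter held 2 GC boxes on either strand, as did at least that many in 24.3% of all windows, and a TATAAA on the gene's strand (6.80% of all windows), at -29 in MT2A and at -30 in MT1X. TGACTCA, the motif read by AP-1 factors, occurred at -104 to -98 in MT2A and in 4.20% of all windows, and these letters were not in the MT1X window. A match describes the letters and does not show that a factor binds.

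**Figure D1:**
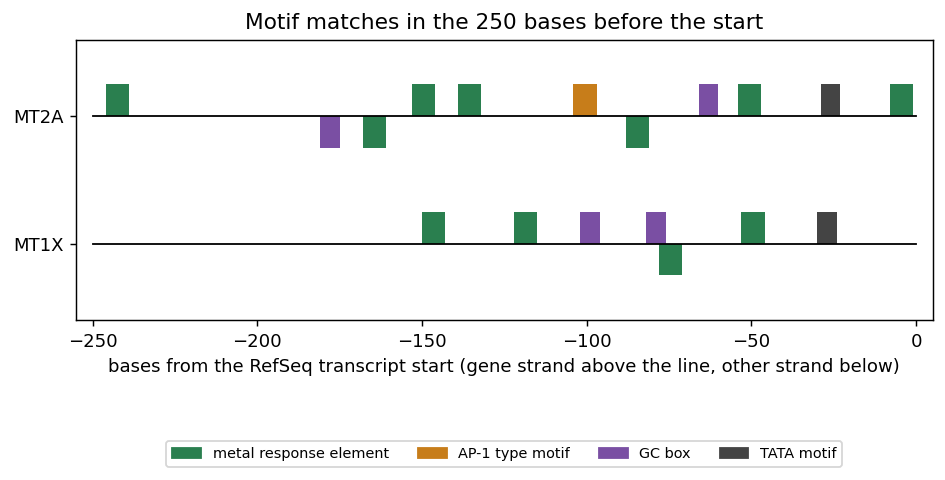
Positions of motif matches in the 250 bases before the transcript start of MT2A and MT1X; the horizontal axis is bases from the start, boxes above the line are matches on the gene's strand and boxes below are on the other strand. MT2A has 7 metal response element matches spread over the window, and the 4 of MT1X lie from -150 to -47.

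MT2A (ENSG00000125148, chromosome 16, 56608584 to 56609497, plus strand, GRCh38) has 3 exons and was the dominant member in every library. Its level was 570 TPM (transcripts per 1000000, corrected for length by the authors) in ALDH_High library 1, 431 in library 2 and 428 in library 3. In ALDH_Low it was 845 TPM in library 1, 1016 in library 2 and 1019 in library 3. The lowest ALDH_Low library thus lay above the highest ALDH_High library, and in each group library 1 was the nearest to the other group. These levels placed MT2A between rank 251 and rank 329 of all genes by TPM in the ALDH_High libraries and between rank 147 and rank 167 in the ALDH_Low libraries. The counts behind them were 6278, 5852 and 5597 in ALDH_High and 13335, 12400 and 12301 in ALDH_Low.

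MT2A was lower in ALDH_High, at 194 ± 46.8 against 401 ± 49.6 CPM (counts scaled to the library size with TMM factors, per 1000000, SD, n = 3). Its log2 fold change was -1.05 (SE 0.17, edgeR quasi-likelihood test, adjusted p 0.00177), which makes ALDH_Low 2.07-fold higher. The exact two-sided permutation test of log2 CPM gave p = 0.1, the smallest possible with 3 against 3 libraries. In bulk RNA, fewer cells with the transcript and less transcript per cell cannot be told apart. MT2A passed the threshold in all 15 alternatives tried, with log2 fold changes from -1.25 (without ALDH_High library 1) to -0.93 (without ALDH_High library 3). The authors' deposited table lists log2 coefficients of MT2A against a group named 1A3, -1.80 for the high sort and -0.77 for the low sort, which differ by -1.03.

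MT1X (ENSG00000187193, chromosome 16, 56682470 to 56684196, plus strand, 3 exons) was the other member with RNA, at a far lower level per length. Its level was 41.4 TPM in ALDH_High library 1, 22.8 in library 2 and 29.6 in library 3. In ALDH_Low it was 39.7 TPM in library 1, 47.1 in library 2 and 47.0 in library 3. The groups overlapped, because ALDH_High library 1 lay above ALDH_Low library 1, and ALDH_High libraries 2 and 3 lay below all others. MT1X averaged 7.20 ± 2.63 CPM across ALDH_High and 10.5 ± 1.20 across ALDH_Low (SD, n = 3).

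The difference in MT1X did not pass the threshold, with a log2 fold change of -0.55 (SE 0.25, edgeR adjusted p 0.159, exact permutation p = 0.2). The call depended on ALDH_High library 1: without it the log2 fold change of MT1X was -0.86 and the edgeR adjusted p 0.0117, the lowest of 15 alternatives. Without ALDH_High library 2 it was -0.33, with the highest adjusted p of the 15, 0.439. For MT1X the authors' deposited table lists -1.42 (high sort) and -0.89 (low sort), which differ by -0.53.

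**Figure D2:**
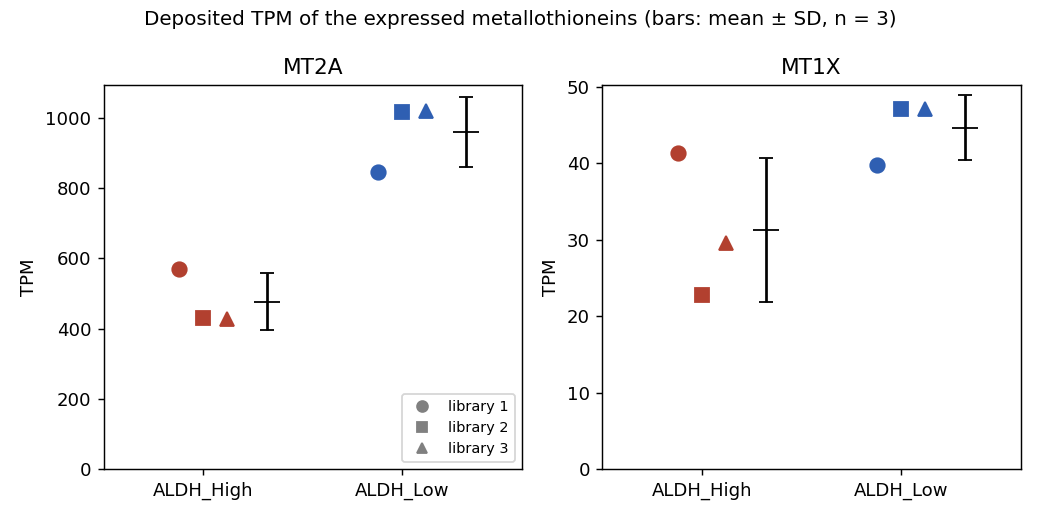
TPM of MT2A (left) and MT1X (right) in each library, with ALDH_High in red and ALDH_Low in blue; symbols give the library number and black bars the mean ± SD of 3 libraries. For MT2A every ALDH_High library lies below every ALDH_Low library, and for MT1X ALDH_High library 1 lies above ALDH_Low library 1.

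The other 5 members had next to no RNA in either group. MT1E, MT1G, MT1M and MT1A had 0 counts in all 6 libraries, which at 3 counts allows up to between 0.0793 and 0.112 CPM on total counts, depending on the library. MT1F had 2 counts in ALDH_High library 2 and 0 in the other 5 libraries. A difference between the groups was not detectable at this depth for these 5, and no fold is given. The limit covers counting error only, and not reads that could not be placed among near-identical copies. All 5 encode cysteine-rich proteins of the same metal-binding type as MT2A, and all lie between MT2A and MT1X, at 16.9 to 59.5 kb from the start of MT2A. Their positions are 56625475 to 56627112 for MT1E, 56632659 to 56633981 for MT1M, 56638666 to 56640087 for MT1A, 56657731 to 56660698 for MT1F and, on the minus strand, 56666730 to 56668065 for MT1G.

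**Figure D3:**
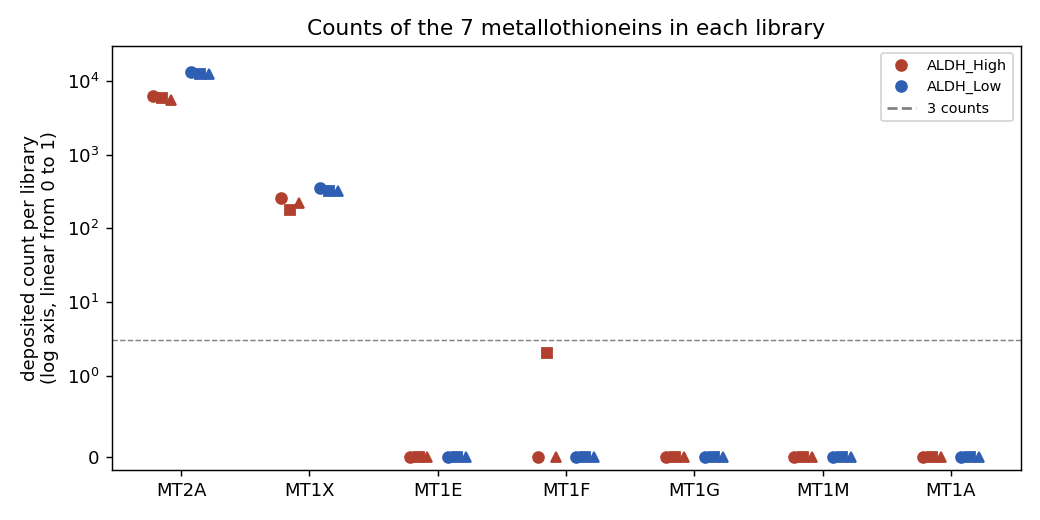
Deposited counts of the 7 metallothioneins in each library (ALDH_High red, ALDH_Low blue; symbols give the library number as circle 1, square 2, triangle 3), on a logarithmic axis that is linear from 0 to 1; the dashed line marks 3 counts. MT2A and MT1X stand well above the line, MT1F has 2 counts in a single library, and the other 4 members are at 0 throughout.

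Of the 7 members, 2 were expressed highly enough to be tested, and 1 of them (MT2A) passed the threshold, in the lower direction. Over all 17047 genes tested, 20.6% passed in either direction and 9.83% were lower in ALDH_High. The 2 groups did not overlap in 1 of the 2 tested members, against 37.8% of all genes tested. The log2 fold changes of both were below 0, with a median of -0.80 beside -0.013 over all genes tested. With 2 genes, these counts say nothing about the family beyond MT2A and MT1X. Among the 564 tested genes with a mean CPM at least that of MT2A, 47 (8.33%) were lower in ALDH_High, and 8 (1.42%) had a log2 fold change below that of MT2A. MT2A has a short transcript of 401 bases, and the 738 tested genes with a transcript of 300 to 600 bases had a median log2 fold change of -0.22. Of these 738 genes, 79 (10.7%) were lower, and 95 (12.9%) had a log2 fold change below that of MT2A. The part of transcript length in the difference was not tested.

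The summed level of the 7 members was 611 TPM in ALDH_High library 1, 455 in library 2 and 458 in library 3, against 885, 1063 and 1066 TPM in ALDH_Low libraries 1, 2 and 3. The means were 508 ± 89.6 and 1005 ± 104 TPM (SD, n = 3), and ALDH_Low was 1.98-fold higher, with an exact two-sided permutation p of 0.1, the smallest possible. MT2A made up 93.2%, 94.9% and 93.5% of this sum across ALDH_High. Across ALDH_Low it made up 95.5%, 95.6% and 95.6%. The shares did not overlap between groups, and differed by -1.66 percentage points (exact permutation p = 0.1). Set against MT2A, there were 7.26, 5.29 and 6.91 TPM of MT1X per 100 TPM of MT2A across ALDH_High, and 4.70, 4.64 and 4.61 across ALDH_Low. The log2 ratio of MT1X to MT2A was 0.47 higher in ALDH_High (-3.96 ± 0.24 against -4.42 ± 0.01, SD, n = 3, exact permutation p = 0.1). All 3 ALDH_High ratios lay above the ALDH_Low ratios. This was the single ratio of 2 members that could be formed, since the other 5 were at or under 3 counts. The proportions of MT1X and MT2A rest on the lengths behind the deposited TPM. In ALDH_Low, means of 401 CPM for MT2A and 10.5 for MT1X stood beside 960 and 44.6 TPM. The transcripts of these genes examined above are 401 and 404 bases long. In TMM-scaled CPM the log2 ratio was also 0.47 higher in ALDH_High.

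The other 14 metallothionein genes and pseudogenes listed (MT1B, MT1H, MT1L, MT1HL1, MT3, MT4 and 8 more) were all too low to be tested. MT3, the brain form that inhibits neurite growth, had 1 count in ALDH_Low library 3 and 0 in the other 5 libraries. MT1XP1, a processed pseudogene of MT1X, held 2, 1 and 1 counts across ALDH_High and 7, 4 and 2 across ALDH_Low. MT1XP1 was chosen after its values were seen, and 27.7% of its 50-base windows also occur in other transcripts, MT1X and MT2A among them. No other gene of the 14 exceeded 2 counts in a library.

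Among 17 neighbours of the cluster on chromosome 16, 15 were tested, of which 0 rose and 3 fell (median log2 fold change -0.22). For comparison, 20.6% of all genes tested passed in either direction and 9.83% were lower in ALDH_High. The tested gene of this list nearest to MT2A on the other side, BBS2, a subunit of the ciliary BBSome, lies 25.9 kb from the start of MT2A and had a log2 fold change of -0.40 (SE 0.14, edgeR adjusted p 0.0767). The nearest beyond MT1X, NUP93, a nuclear pore protein, had -0.086 (SE 0.11, edgeR adjusted p 0.641). Neither passed, in the main test or in 15 alternatives each; both were named for their position after the values were seen. The 3 lower genes lay farther away. NLRC5, an activator of MHC class I genes, fell by 0.86 on the log2 scale at 381 kb (edgeR adjusted p 0.00222). HERPUD1, a protein of endoplasmic reticulum degradation, fell by 0.53 at 324 kb (edgeR adjusted p 0.00810, and 0.0588 when limma took every gene with a TPM above 0, the top of a range from 0.00156). CPNE2, a calcium-dependent membrane-binding protein, fell by 0.56 at 484 kb (edgeR adjusted p 0.0265). CPNE2 did not pass when any library other than ALDH_High library 1 was left out (edgeR adjusted p 0.0576 to 0.106), and it was named after its values were seen. Of the 15 neighbours tested, 12 had a log2 fold change below 0 and 3 above 0, beside 8767 and 8280 of all genes tested.

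**Figure D4:**
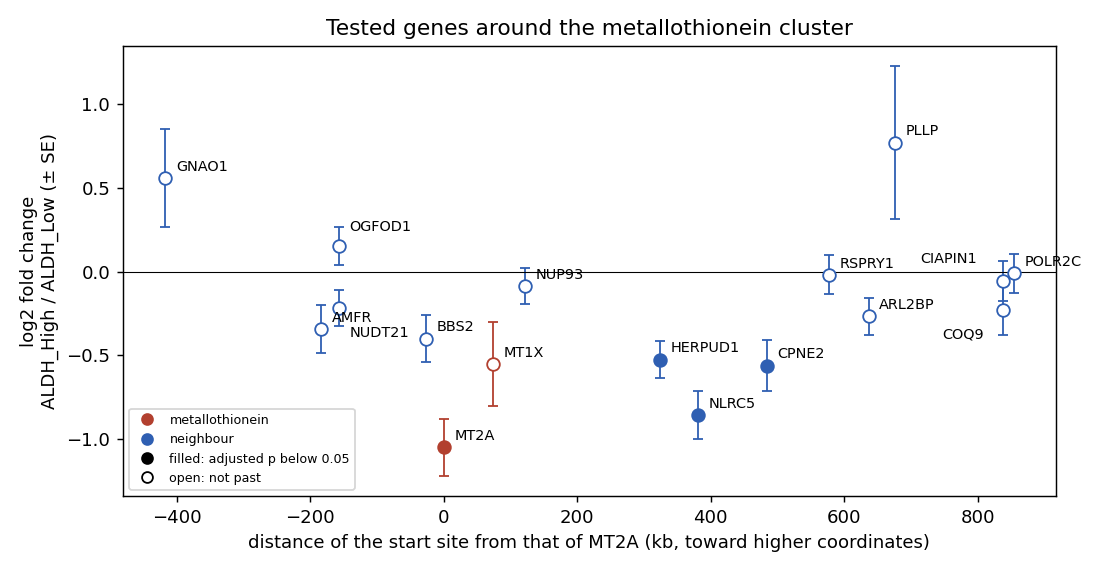
Log2 fold change (ALDH_High over ALDH_Low, bars ± SE) of tested metallothioneins and listed neighbours, by distance of their start from that of MT2A (kb). Red points are metallothioneins, blue points are neighbours, and filled points have an adjusted p below 0.05. MT2A is the lowest point at -1.05. BBS2 and NUP93, the nearest tested neighbours of the list on either side, are open at -0.40 and -0.086. The 3 filled neighbours lie at 324 to 484 kb.

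Of 9 genes that control metal-responsive transcription or were listed with it, all were tested, 0 rose and 1 fell (median log2 fold change 0.24). Beside this, 20.6% of all genes tested passed in either direction and 9.83% were lower in ALDH_High. MTF1, the zinc sensor that drives metallothionein promoters, averaged 29.6 CPM across ALDH_High and 35.2 across ALDH_Low, a log2 fold change of -0.25 (SE 0.16, edgeR adjusted p 0.333). SLC30A1, a zinc exporter and an established MTF1 target, measured 41.9, 34.4 and 47.8 CPM across ALDH_High. Across ALDH_Low it measured 40.7, 30.3 and 33.6 CPM, so the groups overlapped (log2 fold change 0.24, SE 0.16, edgeR adjusted p 0.328). SLC39A10, a zinc importer that MTF1 represses, had a log2 fold change of 0.42 (SE 0.20, edgeR adjusted p 0.185). None of MTF1, SLC30A1 and SLC39A10 passed in any of 15 alternatives, but their sizes moved with single libraries. The log2 fold change of MTF1 ranged from -0.36 (ALDH_High library 2 left out) to -0.07 (ALDH_High library 1 left out). That of SLC30A1 ranged from 0.14 (ALDH_High library 3 left out) to 0.39 (ALDH_Low library 1 left out). That of SLC39A10 ranged from 0.25 (ALDH_Low library 3 left out) to 0.57 (ALDH_High library 1 left out). The gene that fell was NR3C1, the glucocorticoid receptor, with 36.7, 42.3 and 50.3 CPM across ALDH_High. Across ALDH_Low NR3C1 measured 76.1, 84.0 and 60.3 CPM, and the groups did not overlap (log2 fold change -0.77, SE 0.16, edgeR adjusted p 0.00661). NR3C1 passed in 12 of 15 alternatives and missed in the 3 limma fits on TPM, with an adjusted p of up to 0.136 (the lowest over the 15 was 1.94e-06).

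Of 10 genes known to respond to glucocorticoids, 9 were tested, 2 rose and 2 fell, with a median log2 fold change of 0.022. The share past the threshold in either direction over all genes tested was 20.6%. KLF9, a transcription factor induced by the receptor, rose from 24.2 to 83.7 CPM on average (log2 fold change 1.79, SE 0.29, edgeR adjusted p 0.00187). DUSP1, a phosphatase that switches off MAP kinases, measured 51.8, 27.3 and 25.9 CPM across ALDH_High against 113, 89.6 and 78.2 across ALDH_Low. DUSP1 fell by 1.42 on the log2 scale (SE 0.25, edgeR adjusted p 0.0031). TFCP2L1, a transcription factor, rose by 0.80 (edgeR adjusted p 0.0363) and SGK1, a serine kinase, fell by 0.66 (0.0357). TFCP2L1 missed the threshold in all 6 fits without a library (edgeR adjusted p 0.0566 to 0.117). SGK1 missed it in 5 of 6, all but the fit without ALDH_Low library 2, and its log2 fold change was -0.36 without ALDH_Low library 1 (edgeR adjusted p 0.114, in a range from 5.97e-05 to 0.244 over all alternatives). FKBP5, a chaperone of the receptor, had a log2 fold change of 0.022 (edgeR adjusted p 0.943) and was named after its values were seen. Its sign turned in 4 of 15 alternatives, none of which passed, so FKBP5 has no direction here.

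No zinc transporter passed in the main test, beside 20.6% of all genes tested in either direction. Of 10 exporter genes 7 were tested, with a median log2 fold change of 0.070, and of 13 importer genes 10 were tested, with a median of -0.038. The adjusted p-values of edgeR began at 0.0572 among the exporters (SLC30A3, log2 fold change 0.95) and at 0.217 among the importers (SLC39A14, log2 fold change -0.25). At an unadjusted p under 0.05, edgeR counted 1 of the exporters and 0 of the importers, and DESeq2 1 and 0. SLC30A3 passed in 1 of 13 alternatives, that of at least 10 counts in every library (edgeR adjusted p 0.0354, in a range up to 0.207), and SLC39A14 in 0 of 15, with a log2 fold change of -0.13 without ALDH_Low library 2. SLC30A3, which loads zinc into vesicles, and SLC39A14, which also carries iron and manganese, were named after their values were seen.

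Of the copper genes, most did not pass. The 15 genes listed had 16 rows in the table, all tested, of which 3 rose, 2 fell and 11 did not pass, with a median log2 fold change of 0.0085; 20.6% of all genes tested passed in either direction. ATP7B, a pump that exports copper, measured 6.86, 8.94 and 4.98 CPM across ALDH_High and 1.84, 1.14 and 1.26 across ALDH_Low. ATP7B rose by 2.28 on the log2 scale (SE 0.30, edgeR adjusted p 0.000486), and it passed in all 15 alternatives. In limma on log2(TPM + 1) its log2 fold change was 1.06, on a scale that understates the change of low genes. STEAP3, a metalloreductase, fell by 0.81 (edgeR adjusted p 0.00661) and CUTA fell by 0.63 (0.00932). STEAP3 had an adjusted p of 0.0616 when limma took every gene with a TPM above 0 (the lowest of 15 was 7.24e-05), and CUTA of 0.0519 without ALDH_High library 2 (the lowest was 0.000227). COX11, which helps to load copper into cytochrome oxidase, rose by 0.37 (edgeR adjusted p 0.0478) and missed the threshold when any library other than ALDH_High library 1 was left out (0.0835 to 0.173). COX11 passed in 4 of 15 alternatives in all, and also missed with the replicate block (0.0573), upper-quartile factors (0.079), no count filter (0.0774) and the 3 limma fits (0.0558 to 0.104). ATOX1, the chaperone that hands copper to the pumps, rose by 0.58 (edgeR adjusted p 0.0482) and was named after its values were seen. ATOX1 passed in 9 of 15 alternatives and missed the threshold in 4 of the 6 fits without a library, with a log2 fold change of 0.38 without ALDH_High library 1 (edgeR adjusted p 0.0764, in a range from 0.000377 to 0.168 over all alternatives).

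Of 11 genes induced by oxidants or metal stress, all were tested, 0 rose and 2 fell, with a median log2 fold change of -0.23. Among all genes tested, 20.6% passed in either direction and 9.83% were lower in ALDH_High. HMOX1, the heme-degrading enzyme also induced by cadmium, measured 16.6, 14.2 and 14.4 CPM across ALDH_High. Across ALDH_Low it measured 23.8, 22.5 and 28.8 CPM. The groups did not overlap, and HMOX1 fell by 0.73 on the log2 scale (SE 0.15, edgeR adjusted p 0.00574), passing in all 15 alternatives. TXNRD1, thioredoxin reductase, fell by 0.57 (edgeR adjusted p 0.0409) and missed the threshold in 5 of the 6 fits without a library, all but that without ALDH_Low library 1 (0.0618 to 0.160, in a range from 0.000343 to 0.304 over all alternatives). NQO1, a quinone reductase, averaged 862 CPM across ALDH_High and 701 across ALDH_Low (log2 fold change 0.30, edgeR adjusted p 0.0843) and was named after its values were seen. The groups did not overlap, and NQO1 passed, higher in ALDH_High, in 3 of 15 alternatives, all of them limma fits on TPM (adjusted p 0.0138 to 0.0487, in a range up to 0.197).

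**Figure D5:**
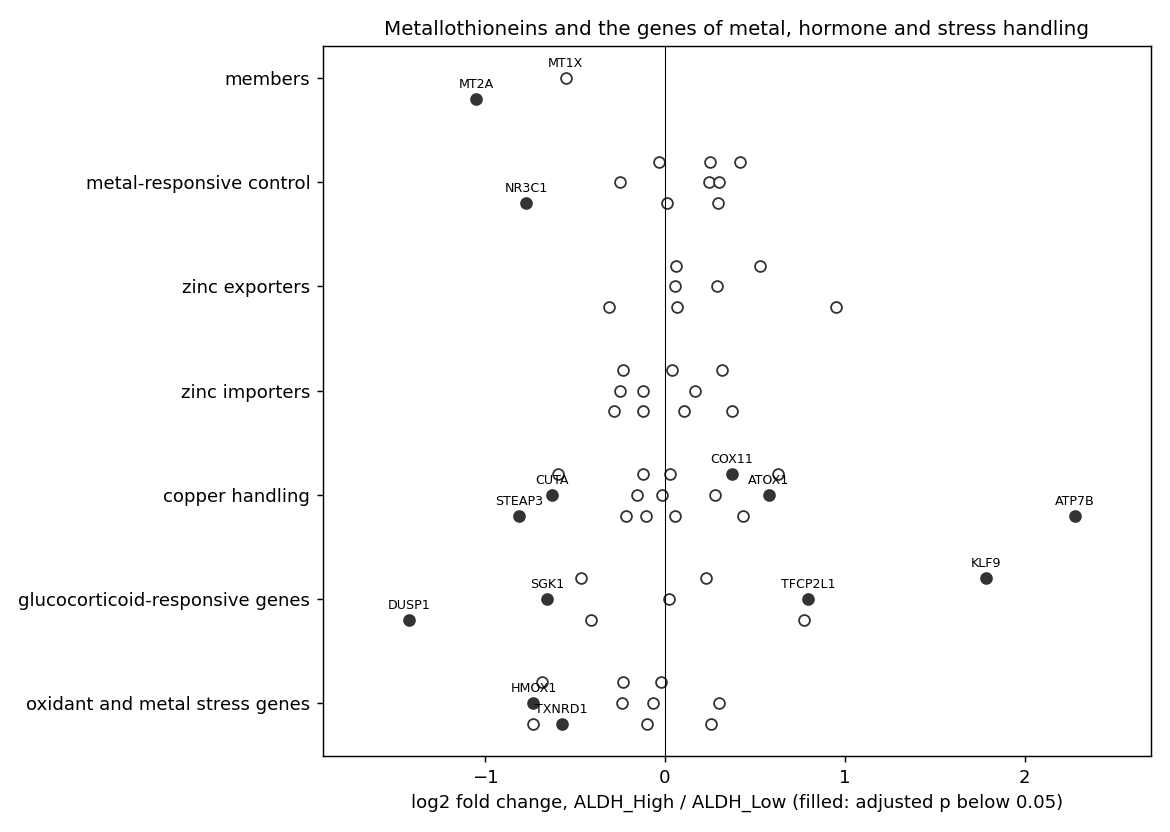
Log2 fold change (ALDH_High over ALDH_Low) of each tested metallothionein and of each tested gene in the lists of metal control, zinc and copper handling, glucocorticoid response and oxidant stress; each point is a gene, and filled points have an adjusted p below 0.05 and are named. MT2A is filled at -1.05 and MT1X open at -0.55, no zinc transporter is filled, and the copper list spreads from STEAP3 at -0.81 to ATP7B at 2.28.

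The genes whose profile over the 6 libraries was most like that of MT2A were SERPINB6, SHROOM1, PSMB8, LRP1 and TLCD1, in this order. Likeness was the root mean square difference between log2 CPM values centred on each gene's own mean, among 9533 genes outside the family with a mean of at least 10 CPM. It was 0.093 for SERPINB6, a serine protease inhibitor inside cells, and 0.11 for SHROOM1, of the actin-binding Shroom family. The values were 0.11 for PSMB8, an inducible proteasome subunit, 0.11 for LRP1, an endocytic receptor, and 0.12 for TLCD1, against a median of 0.60 over the 9533 genes. SERPINB6 measured 63.7, 45.5 and 45.8 CPM across ALDH_High and 101, 101 and 111 across ALDH_Low, so that library 1 was the highest of ALDH_High, as for MT2A. MT1X was at 0.28 from MT2A, and 177 of the 9533 genes were nearer. The limit of 10 CPM was not applied to MT1X, which averaged 7.20 CPM across ALDH_High and 10.5 across ALDH_Low.

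Across the series, total counts ran from 26692868 to 37830603 per library, and ALDH1A3, an aldehyde dehydrogenase, was higher in ALDH_High (log2 fold change 1.32, edgeR adjusted p 0.000734). ALDH_High library 1 stood apart on the second principal component, at 49.1 against -22.0 and -32.5 for ALDH_High libraries 2 and 3. Of 7 melanocyte markers, SOX10 (the most abundant), MITF, S100B and S100A1 reached at least 1 CPM in a library, while PMEL, MLANA and TYR, the pigment genes, stayed below 1 CPM in all 6. Their sum was 670 to 843 CPM on total counts across ALDH_High and 212 to 233 across ALDH_Low, most of it SOX10 (596 to 769 and 177 to 208). S100B went with the sum, at 29.9 to 35.1 CPM in ALDH_High and 0.605 to 3.14 in ALDH_Low. So did S100A1, at 25.6 to 33.9 CPM in ALDH_High and 0.572 to 2.25 in ALDH_Low. MITF lay the other way, at 12.2 to 14.3 CPM in ALDH_High and 19.1 to 32.6 in ALDH_Low. White blood cell markers summed to 2.89 to 6.71 CPM in ALDH_High and 1.88 to 2.71 in ALDH_Low, with MS4A1 and NKG7 at 0 and PTPRC below 1 throughout. In this list LYZ was at 2.45 to 6.37 CPM in ALDH_High, most of the sum there, and at 0.807 to 1.46 in ALDH_Low. CD14 lay the other way, at 0.112 to 0.358 CPM in ALDH_High and 0.634 to 1.07 in ALDH_Low. The 6 epithelial markers summed to 390 to 697 CPM in ALDH_High and 1165 to 1749 in ALDH_Low, nearly all of it KRT18 and KRT8. The others did not follow this sum together. KRT5 went with it, at 0.0749 to 0.175 CPM in ALDH_High and 1.08 to 2.85 in ALDH_Low. KRT14 was at 10.4 to 14.8 CPM in ALDH_High and 6.96 to 10.1 in ALDH_Low, CDH1 overlapped between the groups, and EPCAM stayed below 1. The 6 fibroblast markers summed to 18.2 to 20.4 CPM in ALDH_High and 19.7 to 25.2 in ALDH_Low, and did not move together. PDGFRB was at 6.37 to 6.96 CPM in ALDH_High and 10.7 to 13.5 in ALDH_Low. LUM (4.23 to 7.35 against 3.09 to 3.43) and DCN (0.508 to 1.35 against 0.336 to 0.428) were higher in ALDH_High, and the rest overlapped. The 4 endothelial markers summed to 11.5 to 13.04 CPM in ALDH_High, mostly KDR, and to 2.11 to 2.76 in ALDH_Low, and the 4 erythroid markers to 0.321 to 0.937 and 0.101 to 0.143 CPM, with HBB at 0. Transcripts of the mitochondrial genome, a sign of RNA and cell quality, took 1.31% to 1.66% of the counts in ALDH_High and 2.00% to 3.06% in ALDH_Low, so they moved in the same direction as MT2A. The part of these markers in the difference of MT2A was not tested.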

How the data were processed

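RNA-seq was compared between 3 ALDH_High and 3 ALDH_Low libraries of A375 cells, grouped by sample title. The submitters' processing notes name FastQC 0.11.3, STAR 2.5.1b, HTSeq 0.6.1, DESeq2 and GRCh38, without roles; the annotation release is not given in the sources used here. The authors deposited whole-number counts per gene, treated here as rounded estimated counts because 133 to 177 genes per library had a count of 0 beside a TPM above 0. The authors also deposited TPM values, which sum to 1000000 per library, and model coefficients against a group named 1A3, which were read as log2 values because the column names, per the file headers, are those DESeq2 gives. The unit was taken as raw counts when the test was chosen, and the same test was kept. Whether the counting used strand is not given in the sources used here.

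Genes kept by filterByExpr (17047) were scaled with TMM and tested with edgeR 4.0.16 (glmQLFit, glmQLFTest) in a design of the 2 groups alone. P-values were adjusted by Benjamini-Hochberg across the tested genes, with 0.05 as threshold; a standard error is the log2 fold change over the square root of F. Rows with an Ensembl identifier but no symbol held 0.0213% to 0.0267% of counts and stayed in. On simulated counts of the 16636 genes kept, the test recovered 4.29% of 70 genes changed by 0.5 on the log2 scale. It recovered 45.3% of 64 genes changed by 1 and 80.6% of 62 genes changed by 2. It also called 10 genes that had not been changed in the simulation. In the data 3513 genes passed, and with more changed genes the adjusted threshold is looser. These shares can therefore understate the recovery in the data and do not give that of MT1X. Alternatives were other size factors, other count filters, the replicate block, each library left out, DESeq2 1.42.0 and limma 3.58.1 on log2(TPM + 1) or log2(TPM + 0.1). The ratio to MT2A used a pseudocount of 0.1 TPM and was formed for MT1X only, so it needed no adjustment.

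The members and gene lists were chosen with earlier results of these data known. Named genes are the 7 members, MT3, MTF1, SLC30A1, SLC39A10 and NR3C1, the 2 genes with the smallest p in each direction among those past the threshold in each list, and the 5 genes most like MT2A; other genes with results were named after their values were seen. Cell type markers and ALDH1A3, the check of the sort, were named outside this rule. Gene positions and transcripts come from GENCODE 44 and promoters from RefSeq, both on GRCh38.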

Additional observations from a re-analysis of the deposited data

How the results depend on the processing

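MT2A was lower and past the threshold in all 15 alternatives (adjusted p 5.27e-13 to 0.0162), and no gene named with a test changed direction in any but FKBP5. FKBP5, at 0.022, was at -0.026 with upper-quartile factors, and from -0.056 to 0.17 across the fits without a library, below 0 in 3 of them (-0.056, -0.0044 and -0.049). The members past the threshold numbered 1 in every alternative but the fit without ALDH_High library 1, where MT1X passed too (range 1 to 2, all lower, 0 higher). The number of genes past the threshold was 3513 (1838 higher, 1675 lower). It was 2006 (1155 higher, 851 lower) when limma was run on log2(TPM + 1) for every gene with a TPM above 0. With limma on genes of a mean TPM of at least 1, 1047 were lower at a pseudocount of 1 and 1051 at 0.1. The cause was not tested. When each library was left out in turn, the number ran from 2488 to 4221, with 1306 to 2172 higher and 1073 to 2049 lower, the last range starting without ALDH_High library 2. The log2 ratio of the summed TPM ran from -1.14 to -0.91 across these fits, the share of MT2A from -2.17 to -1.32 percentage points, and the log2 ratio of MT1X to MT2A from 0.38 to 0.61, with no change of direction. Without an ALDH_Low library the exact permutation p of the share and of the ratio was 0.2 in place of 0.1, the smallest possible with 2 against 3. The share of MT2A differed by -0.98 percentage points in CPM, which is not corrected for length. No pairing was assumed, because the labels do not state that equal numbers pair the libraries. Deviations from the group mean correlated at 0.15, 0.076 and 0.11 between the libraries numbered 1, 2 and 3, so pairing is not settled. The replicate block gave 3748 genes (1947 higher, 1801 lower) and 1 member, and each library of ALDH_High correlated best with its own number. Depth limits the 5 members at or under 3 counts.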
